A study of Arabidopsis thaliana with 12 samples.

Results

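The class III peroxidases are a large plant family of secreted, heme-containing enzymes, and this account covers those of the Arabidopsis thaliana root that lie outside the root hair group. They were chosen by family and name: 60 gene identifiers of the PER family were listed, without the root hair genes PER1, PER2, PER7, PER35, PER44, PER60 and PER73 and without PER64. The rule itself uses no measured value, but it was set with earlier results of these data known. Of these, 51 had a row among the 19802 genes of the expression table, and the other 9 are not analysed here. Root RNA was sequenced from CRR OE and from Col-0, each grown for 7 days without added phosphate (–Pi) or with 1 mM phosphate (+Pi). This makes 4 groups, named below by line and medium (CRR OE –Pi and CRR OE +Pi, Col-0 –Pi and Col-0 +Pi). Every group was sequenced as 3 libraries, each from the roots of many seedlings pooled. Col-0 is the wild type of the Col-0 ecotype, and CRR OE is a transgenic line in the same background that carries a CRR-GFP fusion under the 35S promoter, which is active in nearly all tissues. CRR is a membrane protein with a cytochrome b561 and a DOMON domain.

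The values used are 1 mean per group, given by the authors on the log2 CPM scale (CPM, the counts of a gene scaled to a fixed library size, as a base 2 logarithm). They carry no spread between libraries, so no standard deviation, interval or p-value is given for any of them, and no difference below was tested. A difference is the subtraction of one group mean from another, with 1 unit for each doubling, and "past 2-fold" is a description of size. A value in CPM is 2 raised to a group mean in log2 CPM, and sums add such values. It need not equal the mean CPM of the libraries. Where 1 CPM was added before the logarithm, it was added to this back-calculated value and a new logarithm was taken. Whether the libraries of any 2 groups overlap cannot be read from these means, and the read depth behind a mean is not shown by the table. CRR had 12.72 log2 CPM in CRR OE –Pi and 12.70 in CRR OE +Pi, against 5.95 in Col-0 –Pi and 5.96 in Col-0 +Pi, as the labels of the lines say. All 7 root markers looked for were in the table, while the 4 flower and stomata markers had no row and the 3 green shoot markers found summed to 27.9 to 38.8 CPM.

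Class III peroxidases work in the cell wall and in the vacuole. They reduce hydrogen peroxide while oxidising phenolic compounds, and in this way couple monolignols into lignin, bind wall proteins and polysaccharides together and stiffen the wall. In another reaction cycle they make superoxide and hydroxyl radicals, which loosen the wall or signal. In the root they are known for the lignin of the xylem and of the Casparian strip, for the oxidative burst after a pathogen signal, and for setting where cells stop dividing and start to elongate. Each enzyme has a heme iron and a distal histidine, where hydrogen peroxide is split. In most members this histidine lies in a short stretch, phenylalanine-histidine-aspartate-cysteine (FHDC). A script found exactly 1 FHDC in the reference coding sequence of 49 of the 51 members, and these letters were not found in PER24 and PER62. Only this exact string was searched for, so the distal histidine of PER24 and PER62 was not examined. The stretch is shown for PER52, the member with the widest range between groups, for PER49 and PER15, a closely related pair described below, and for PER42, the most abundant member. Capitals mark the FHDC codons, and the bases are coding strand from the TAIR10.1 genome, whose gene coordinates equal those of the table for 19781 of 19783 matched genes.
PER52: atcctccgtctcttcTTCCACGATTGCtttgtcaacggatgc
PER49: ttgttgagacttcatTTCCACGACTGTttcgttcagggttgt
PER15: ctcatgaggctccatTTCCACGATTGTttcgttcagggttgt
PER42: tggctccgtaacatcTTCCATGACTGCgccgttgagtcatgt
The 4 stretches encode the same FHDC with different codons, and the distal histidine is residue 70 in PER52 and PER49, 76 in PER15 and 71 in PER42. Coding sequences of the 51 members were 933 to 1119 bases long (median 993), and 35 of them lay in 4 coding exons, 11 in 3 and 3 in a single one.

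The members were far from one another in level, and their group means lay apart more often than those of all genes. Per kb of coding length, PER42 averaged 1515 CPM over the 4 groups, PER32 1311, PER34 904.5, PER21 715.0 and PER22 583.9, and at the other end PER58 averaged 0.51 and PER43 0.86. The family as a whole held 9361 CPM in CRR OE –Pi, 9867 in CRR OE +Pi, 9376 in Col-0 –Pi and 9473 in Col-0 +Pi, and its 10 most abundant members made up 75.2% to 77.8% of this. The 4 means of 36 members lay within 1 log2 unit of each other (70.6%, beside 92% of all genes), and those of 20 members within 0.5 (39.2%, beside 77.6%). In all, 16 members were past 2-fold in at least 1 of 5 comparisons (31.4%, beside 7.47%).

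**Figure D1:**
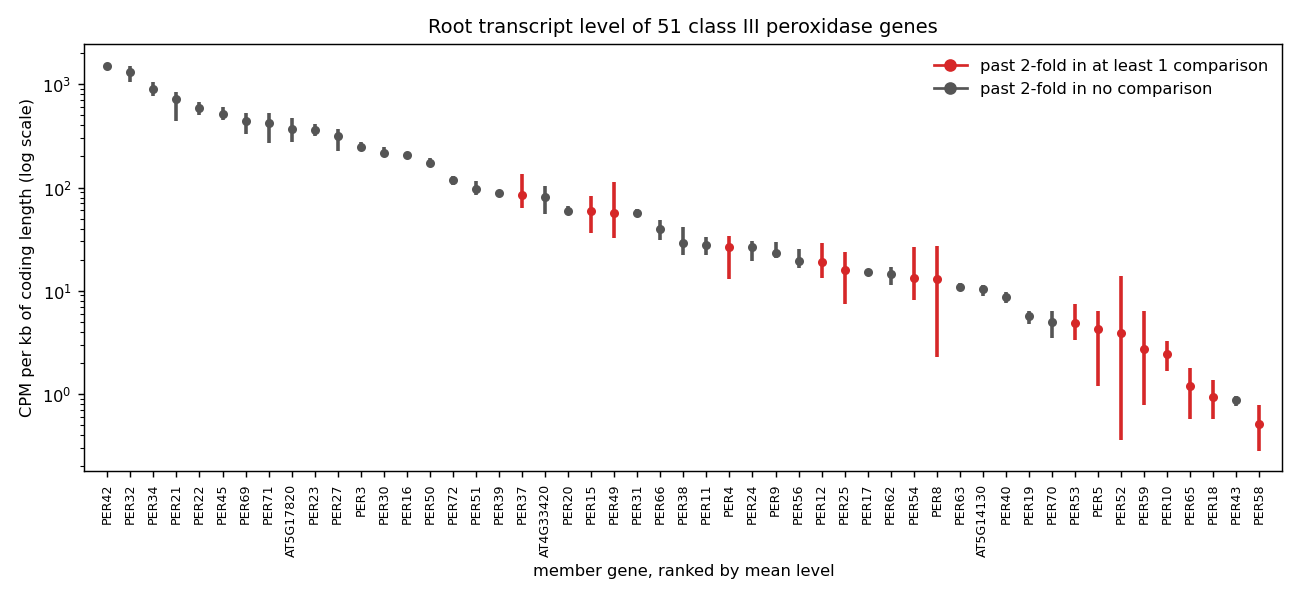
Mean level of each of the 51 members per kb of coding length (points, log scale), with the range of the 4 group means (bars), ranked from PER42 at 1515 to PER58 at 0.51 CPM per kb. The 16 members past 2-fold in at least 1 comparison are in red and stand in the middle and lower part of the ranking.

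Members past 2-fold were counted in each comparison, beside the share of all genes. In CRR OE, 1 member (PER8) was higher and 1 (PER25) lower past 2-fold in –Pi than in +Pi, beside 3.18% and 0.853% of all genes in the table. In Col-0, 7 of 51 members were higher and 3 were lower past 2-fold in –Pi, which is 13.7% and 5.88% of them, beside 3.96% and 2% of all genes. Between the lines in –Pi, 2 members were higher and 9 lower past 2-fold in CRR OE (3.92% and 17.6%), beside 0.702% and 0.747% of all genes. In +Pi, 2 members were higher in CRR OE and 0 lower, beside 0.126% and 0.162% of all genes. These were PER52 and PER58, both with means below 1 CPM, and with 1 CPM added before the logarithm their differences were 0.36 and 0.30. The interaction, the difference between the lines in –Pi minus that in +Pi, was past 2-fold above 0 for 3 members and below 0 for 12 (5.88% and 23.5%), beside 1.09% and 1.06% of all genes. The median over the members stayed near 0 in each comparison, from -0.09 to 0.16, and that over all genes from -0.02 to 0.00.

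**Figure D2:**
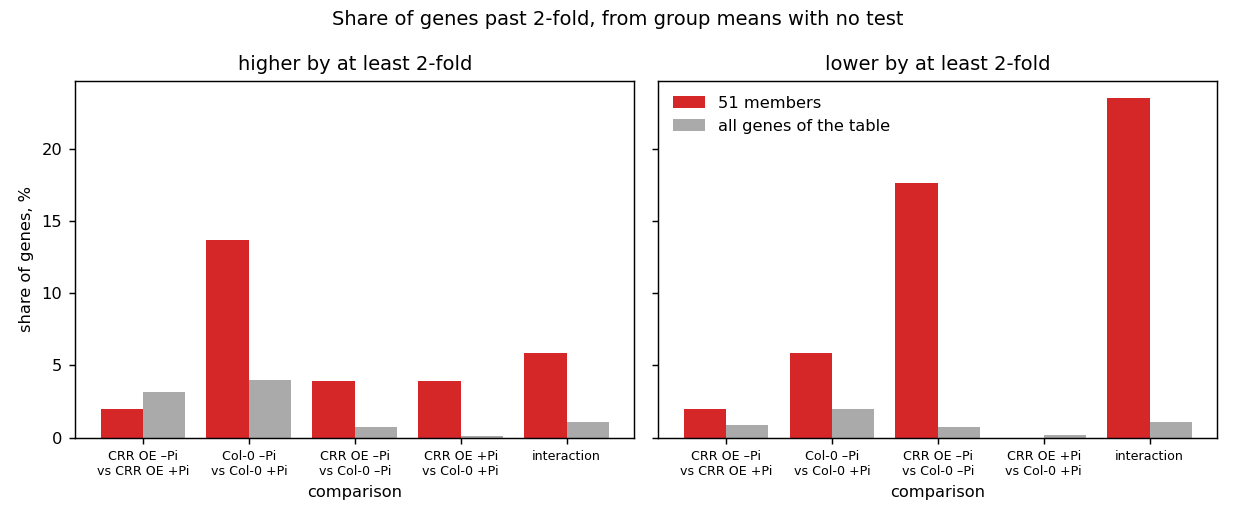
Share of the 51 members (red) and of the 19802 genes of the table (grey) that were higher (left) or lower (right) by at least 2-fold in each comparison, in percent. The tallest bars are the 23.5% of members with an interaction below 0 and the 17.6% that were lower in CRR OE when both lines grew in –Pi.

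These comparisons share groups. A high mean in Col-0 –Pi raises the Col-0 difference and at once lowers the –Pi difference of the lines and the interaction, so the counts above are not separate pieces of evidence. In all 12 members with an interaction below -1, Col-0 was higher in –Pi than in +Pi, while CRR OE was lower in –Pi than in +Pi in 10 of them. Together these 12 members held 178 CPM in CRR OE –Pi and 214 in CRR OE +Pi, against 445 in Col-0 –Pi and 215 in Col-0 +Pi. They were picked by the same means, so the high Col-0 –Pi sum follows from the cut and adds no support. The other members held 9183 CPM in CRR OE –Pi and 9652 in CRR OE +Pi, against 8931 in Col-0 –Pi and 9258 in Col-0 +Pi. All 3 members with an interaction above 1 were lower past 2-fold in –Pi than in +Pi in Col-0. The interaction equals the –Pi minus +Pi difference of CRR OE less that of Col-0, so a cut on it favours such signs. How often they occur among all genes past the same cut was not counted. The absolute difference between –Pi and +Pi was smaller in CRR OE than in Col-0 for 34 of the 51 members (66.7%), beside 59.3% of all genes.

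Differences past 2-fold were more frequent among genes of low level, so the interaction was also read within bands of mean level. Below 2 log2 CPM, 5 of 8 members had an interaction below -1, beside 4.77% of the 3293 genes of that band. These were PER52, PER59, PER58, PER65 and PER10, and the band does not remove the weakness of such low means. With 1 CPM added before the logarithm the last 3 were at -0.61, -0.69 and -0.76. PER52 may be among the genes only through its Col-0 –Pi mean, which also sets its interaction. The share of the band's genes with 1 CPM added was not counted. From 2 to 5 log2 CPM it was 4 of 18 members, beside 0.443% of 9256 genes, and from 5 to 8 log2 CPM 3 of 14 members, beside 0.179% of 6689 genes. At 8 log2 CPM or more it was 0 of 11 members and 0% of 564 genes.

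**Figure D3:**
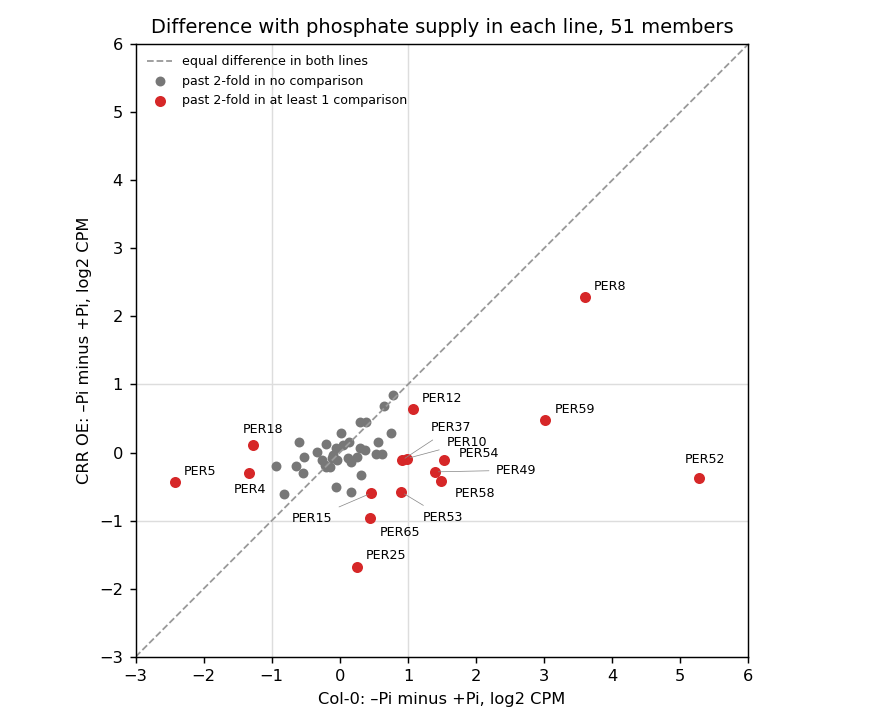
Difference between –Pi and +Pi in CRR OE (vertical axis) against that in Col-0 (horizontal axis) for the 51 members, in log2 CPM, with a dashed line where both lines would have an equal difference. PER52 lies far to the right at 5.27 in Col-0 and -0.37 in CRR OE, PER8 is the 1 member past 2-fold in both lines, and PER5, PER4 and PER18 lie to the left.

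PER52 (AT5G05340, on chromosome 5) had the widest range of the members. This peroxidase is known for lignin formation in the stem. It had -0.83 log2 CPM in CRR OE –Pi and -0.46 in CRR OE +Pi, against 3.76 in Col-0 –Pi and -1.51 in Col-0 +Pi. In CPM these are 0.56 and 0.73, against 13.5 and 0.35, so that only the Col-0 –Pi mean of the 4 was above 1 CPM. A gene was kept if any library reached 1 CPM, so PER52 may be among the genes only through Col-0 –Pi. Col-0 was 38.7-fold higher in –Pi than in +Pi, a log2 difference of 5.27, whereas the difference in CRR OE was -0.37. In –Pi CRR OE was 24.1-fold lower than Col-0, a log2 difference of -4.59, and the interaction was -5.65. Both of these were the lowest values of all 19802 genes. They rest on means below 1 CPM: with 1 CPM added before the logarithm the difference between –Pi and +Pi in Col-0 was 3.43, that between the lines in –Pi -3.22 and the interaction -3.58. In +Pi PER52 was higher in CRR OE by 1.06, a difference between 2 means that were both below 1 CPM.

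The region before PER52 is shown because low phosphate acts on many genes through a known promoter element, the P1BS site bound by PHR1, and because the W-box is bound by WRKY factors. The window is the 250 bases before the annotated gene start, chr5:1580876-1581125, minus strand of TAIR10.1, read 5′ to 3′ in the direction of the gene, with capitals for the W-box core (TTGAC on either strand).
PER52: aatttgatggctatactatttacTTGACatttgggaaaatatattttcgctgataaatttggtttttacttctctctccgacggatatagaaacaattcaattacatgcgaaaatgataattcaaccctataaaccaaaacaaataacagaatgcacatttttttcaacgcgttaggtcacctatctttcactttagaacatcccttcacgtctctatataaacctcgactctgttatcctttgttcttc
No P1BS (GNATATNC) was found in it. Across the members, P1BS was found in 0 of 51 such windows, beside 5.54% of 19784 windows of all genes. The W-box core was found in 21 of 51 members (41.2%), beside 45.4% of all genes, and ACCNACC, the AC element of many lignin genes, in 2 of 51 (PER11 and PER53), beside 6.46%. A match is a string of letters and not a shown binding site, and a window without a match says nothing of the factor.

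PER49 (AT4G36430) and PER15 (AT2G18150) are each other's closest relative among the members, with 81.8% identical bases over the aligned coding sequences, although they lie on chromosomes 4 and 2. PER49 had 5.01 log2 CPM in CRR OE –Pi and 5.30 in CRR OE +Pi, against 6.82 in Col-0 –Pi and 5.43 in Col-0 +Pi. Col-0 –Pi thus stood above 3 means that lay close to each other, at 113 CPM against 32.3 to 43.1. The difference between –Pi and +Pi was -0.28 in CRR OE and 1.39 in Col-0, and the difference between the lines in –Pi, -1.81, was the 37th lowest of all genes. PER15 had 5.21 in CRR OE –Pi and 5.80 in CRR OE +Pi, against 6.40 in Col-0 –Pi and 5.94 in Col-0 +Pi. Here the lowest mean was CRR OE –Pi. The difference between –Pi and +Pi was -0.60 in CRR OE and 0.46 in Col-0, which gives an interaction of -1.06. CRR OE minus Col-0 was -1.19 in –Pi and -0.13 in +Pi. Their upstream windows are set side by side, PER49 at chr4:17206034-17206283, minus strand and PER15 at chr2:7893710-7893959, minus strand, again with the W-box core in capitals.
PER49: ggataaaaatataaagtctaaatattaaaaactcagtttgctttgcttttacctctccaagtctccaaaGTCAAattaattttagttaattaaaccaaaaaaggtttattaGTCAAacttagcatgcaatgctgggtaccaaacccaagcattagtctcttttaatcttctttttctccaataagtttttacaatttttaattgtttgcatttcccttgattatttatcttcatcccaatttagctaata
PER15: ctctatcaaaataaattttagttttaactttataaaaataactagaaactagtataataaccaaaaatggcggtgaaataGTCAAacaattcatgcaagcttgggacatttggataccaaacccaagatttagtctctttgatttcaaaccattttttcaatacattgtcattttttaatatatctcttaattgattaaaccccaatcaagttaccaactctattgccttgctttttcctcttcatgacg
The W-box core stood 2 times in the PER49 window and 1 time in that of PER15, in each case as GTCAA on the strand shown. The longest run of bases in common was taccaaacccaag, of 13 bases. Over the 1275 pairs of members the median of the longest common run was 9 bases, and 8 pairs had a run of 13 or more, of which the 3 longest were the tandem pairs PER50 and PER51, PER37 and PER38, and PER22 and PER23.

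PER54 (AT5G06730) and PER53 (AT5G06720) are tandem neighbours on chromosome 5, with starts 2543 bases apart and 86.3% identical coding bases. PER54 had 3.12 log2 CPM in CRR OE –Pi and 3.23 in CRR OE +Pi, against 4.85 in Col-0 –Pi and 3.31 in Col-0 +Pi. This is the form of PER49 again, with 1 mean high and 3 close together, a difference of -1.73 between the lines in –Pi and an interaction of -1.65. PER53 had 1.75 in CRR OE –Pi and 2.33 in CRR OE +Pi, against 2.89 in Col-0 –Pi and 1.99 in Col-0 +Pi. Its –Pi difference between the lines was -1.14 (-0.95 with 1 CPM added before the logarithm) and its interaction -1.48. The window of PER54, chr5:2081686-2081935, minus strand, is shown because it too held the W-box core 2 times.
PER54: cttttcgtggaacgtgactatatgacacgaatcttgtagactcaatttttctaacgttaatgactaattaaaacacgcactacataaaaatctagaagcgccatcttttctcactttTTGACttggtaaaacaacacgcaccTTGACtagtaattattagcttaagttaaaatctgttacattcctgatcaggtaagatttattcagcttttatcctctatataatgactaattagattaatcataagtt
PER53 held 1 such core, and neither window held P1BS. The core also stood 3 times in the windows of PER62, PER71 and PER72 and 2 times in those of PER5, PER12, PER20, PER34 and PER40. Of the members in this list, PER5 and PER12 passed 2-fold in some comparison and the others in none. How many of all genes hold the core 2 or more times was not counted. It was found 0 times in those of PER37, PER59 and PER25.

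PER37 (AT4G08770) and PER38 (AT4G08780), neighbours on chromosome 4, are the most alike of all tandem pairs, with 93.8% identical coding bases. PER37 had 6.04 log2 CPM in CRR OE –Pi and 6.16 in CRR OE +Pi, against 7.15 in Col-0 –Pi and 6.24 in Col-0 +Pi. CRR OE minus Col-0 was -1.11 in –Pi and -0.08 in +Pi. PER38 had 4.82 and 4.54 in CRR OE, against 5.44 and 4.68 in Col-0 (–Pi first in each line), with a difference of -0.62 in –Pi that did not pass 2-fold. Reads of copies this alike can be assigned to either gene or set aside, so how the pair shares its reads is uncertain. The same holds for PER50 with PER51 and for PER22 with PER23, at 92.4% and 90.6% identity.

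PER59 (AT5G19890) and PER58 (AT5G19880) are neighbours on chromosome 5 but only 60.9% identical. PER59 had 1.08 log2 CPM in CRR OE –Pi and 0.61 in CRR OE +Pi, against 2.64 in Col-0 –Pi and -0.38 in Col-0 +Pi. The difference between –Pi and +Pi was 0.47 in CRR OE and 3.02 in Col-0, and the interaction of -2.55 was the 17th lowest of all genes. With 1 CPM added before the logarithm the Col-0 difference was 2.03 and the interaction -1.73. PER58 was the lowest of the members, with -1.23 and -0.82 in CRR OE against -0.39 and -1.87 in Col-0 (–Pi first in each line). All 4 of its means were below 1 CPM, and its 1.05 between the lines in +Pi and 1.48 between –Pi and +Pi in Col-0 rest on those levels: with 1 CPM added they were 0.30 and 0.47, and the interaction of -1.89 was -0.61.

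PER25 (AT2G41480), a peroxidase with a known part in stem lignin, was the 1 member lower past 2-fold in –Pi than in +Pi in CRR OE. It had 2.86 log2 CPM in CRR OE –Pi and 4.54 in CRR OE +Pi, against 4.12 in Col-0 –Pi and 3.87 in Col-0 +Pi. The difference between –Pi and +Pi was -1.67 in CRR OE, the 37th lowest of all genes, and 0.25 in Col-0. PER65 (AT5G47000) also had its lowest mean in CRR OE –Pi, at -0.82 log2 CPM beside 0.14 in CRR OE +Pi, against 0.84 in Col-0 –Pi and 0.39 in Col-0 +Pi. Its differences of -1.66 between the lines in –Pi and of -1.40 for the interaction were -0.83 and -0.69 with 1 CPM added. PER10 (AT1G49570) had 2.46 and 2.62 CPM in CRR OE, against 3.45 and 1.75 CPM in Col-0 (–Pi first), and passed 2-fold in the interaction alone, at -1.07, which was -0.76 with 1 CPM added.

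PER8 (AT1G34510) was the member higher past 2-fold in –Pi in both lines. It had 4.14 log2 CPM in CRR OE –Pi and 1.86 in CRR OE +Pi, against 4.67 in Col-0 –Pi and 1.07 in Col-0 +Pi. The difference was 2.28 in CRR OE (4.87-fold) and 3.60 in Col-0 (12.1-fold), and the interaction of -1.32 was made up of -0.53 for the line difference in –Pi and 0.79 for that in +Pi. The root hair peroxidases, which are not members, had this form more evenly: PER7, PER35, PER44, PER60 and PER73 were higher in –Pi by 1.19 to 2.58 in CRR OE and by 1.63 to 2.79 in Col-0, and none passed 2-fold between the lines. Of 6 root hair markers 4 passed 2-fold in each line, with sums of 545 CPM in CRR OE –Pi and 189 in CRR OE +Pi, against 526 in Col-0 –Pi and 157 in Col-0 +Pi. In whole roots more cells of a type and more RNA per cell cannot be told apart, and the part of root hair number in the PER8 values was not tested. PER12 (AT1G71695) passed 2-fold in Col-0 alone, at 1.07, with 0.64 in CRR OE.

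**Figure D4:**
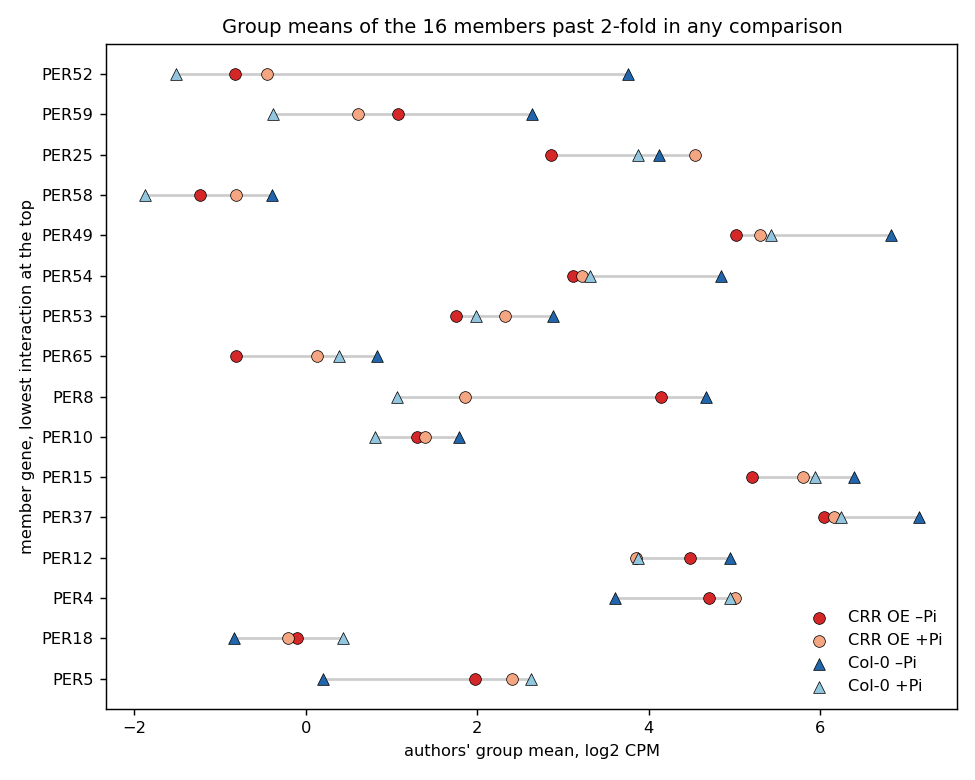
Authors' group means (log2 CPM) of the 16 members past 2-fold in any comparison, with circles for CRR OE and triangles for Col-0, dark for –Pi and light for +Pi, ordered by interaction from PER52 at -5.65 to PER5 at 1.98. In 13 rows the dark triangle of Col-0 –Pi lies to the right of the light one and in PER4, PER18 and PER5 to its left.

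An interaction above 1, with Col-0 lower past 2-fold in –Pi and CRR OE within 2-fold, was seen in 3 members. PER5 (AT1G14550) had 1.97 log2 CPM in CRR OE –Pi and 2.41 in CRR OE +Pi, against 0.20 in Col-0 –Pi and 2.63 in Col-0 +Pi. Col-0 –Pi again was the mean that stood apart: the difference between –Pi and +Pi was -0.44 in CRR OE and -2.42 in Col-0 (5.36-fold lower), and in –Pi CRR OE was 3.40-fold higher than Col-0. The interaction of 1.98 was the 18th highest of all genes. With 1 CPM added before the logarithm the Col-0 difference was -1.74, that between the lines in –Pi 1.19 and the interaction 1.38. PER4 (AT1G14540) is its tandem neighbour on chromosome 1, with 73.6% identical coding bases, and is known for lignin formation and for the oxidative burst. It had 4.70 in CRR OE –Pi and 5.01 in CRR OE +Pi, against 3.61 in Col-0 –Pi and 4.95 in Col-0 +Pi. Both neighbours thus had their lowest mean in Col-0 –Pi, and PER4 was higher in CRR OE by 1.09 in –Pi and by 0.06 in +Pi. Its difference between –Pi and +Pi was -0.31 in CRR OE and -1.34 in Col-0, and its interaction of 1.03 was 0.98 with 1 CPM added. PER18 (AT2G24800) had -0.10 and -0.21 in CRR OE, against -0.84 and 0.43 in Col-0 (–Pi first), near 1 CPM throughout, and with 1 CPM added its Col-0 difference was -0.59 and its interaction 0.64.

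**Figure D5:**
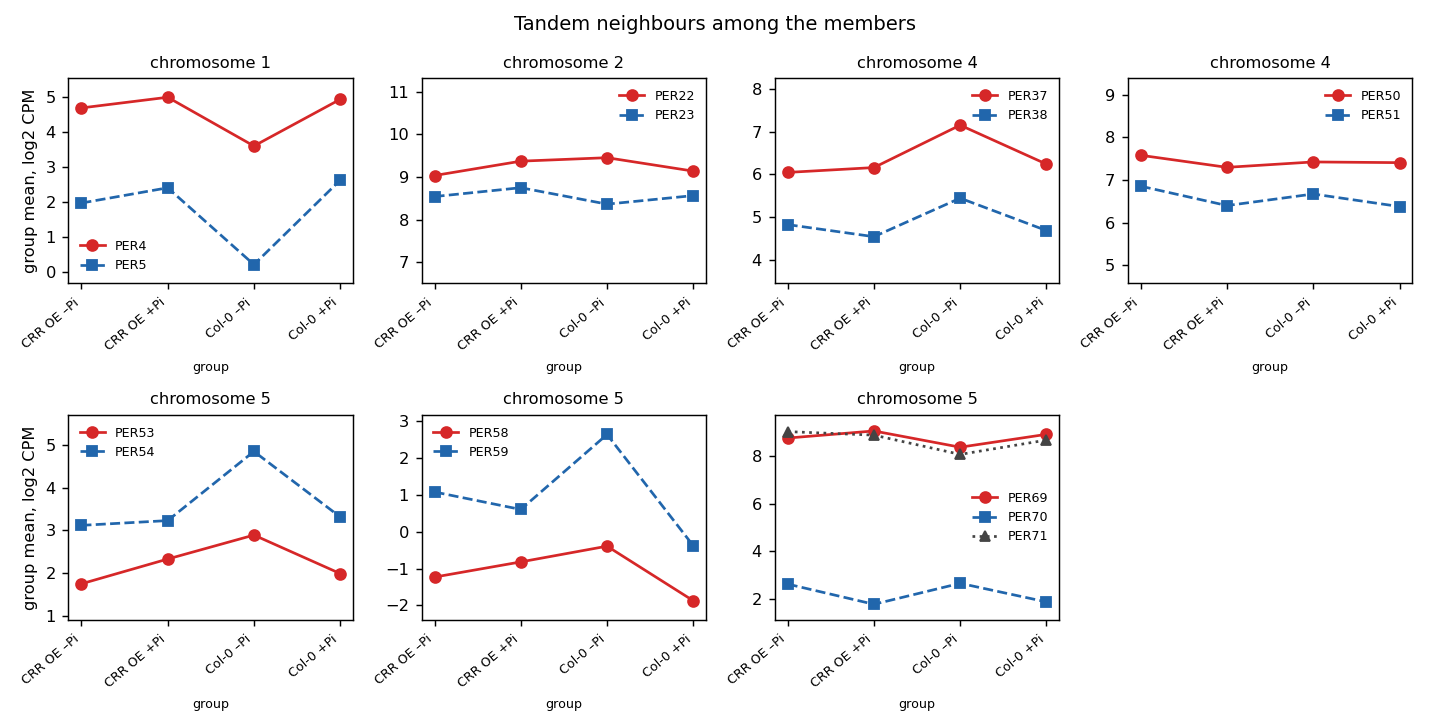
Group means (log2 CPM) of the members whose starts lie within 10 kb of each other, 1 panel per cluster, with both CRR OE groups on the left, both Col-0 groups on the right and lines that only join the points of a gene. PER53 with PER54, PER58 with PER59 and PER37 with PER38 peak in Col-0 –Pi, and PER4 with PER5 have their lowest point there.

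Not all tandem neighbours were so alike. PER69, PER70 and PER71 lie within 8690 bases on chromosome 5. PER70 (AT5G64110) was higher in –Pi in both lines, with 2.63 and 1.78 log2 CPM in CRR OE against 2.66 and 1.88 in Col-0 (–Pi first). PER71 (AT5G64120), which acts in wall stiffening and in the oxidative burst, had 9.02 in CRR OE –Pi and 8.87 in CRR OE +Pi, against 8.06 in Col-0 –Pi and 8.66 in Col-0 +Pi. Its difference of 0.95 between the lines in –Pi stopped short of 2-fold. PER69 (AT5G64100) had 8.75 and 9.04 in CRR OE, against 8.36 and 8.90 in Col-0, –Pi first here and for the copies below. Among the abundant members PER21 (AT2G37130) had the form of PER71, with 9.49 in CRR OE –Pi and 9.69 in CRR OE +Pi, against 8.77 in Col-0 –Pi and 9.70 in Col-0 +Pi. In CPM this is 718 in CRR OE –Pi against 436 in Col-0 –Pi, and 827 in CRR OE +Pi against 833 in Col-0 +Pi, so that in CPM the gap exceeded that of any member past 2-fold. PER50 had 7.58 and 7.29 in CRR OE against 7.42 and 7.40 in Col-0, and PER51 6.85 and 6.40 against 6.67 and 6.38. PER22 had 9.04 and 9.37 in CRR OE against 9.45 and 9.14 in Col-0, while PER23 had 8.54 and 8.75 against 8.37 and 8.57. The copies PER22 and PER23 had an interaction of -0.65 and -0.01, with the reservation on shared reads given above.

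By known role, PER3, PER9, PER39 and PER72 act with PER64 in the lignin ring of the endodermis, the Casparian strip. Of these 4 members 0 passed 2-fold in any comparison, beside the 7.47% of all genes that passed in at least 1. Their differences between –Pi and +Pi were -0.19 to -0.01 in CRR OE and -0.21 to 0.54 in Col-0. The widest was PER9 (AT1G44970), with 4.43 in CRR OE –Pi and 4.44 in CRR OE +Pi, against 4.96 in Col-0 –Pi and 4.43 in Col-0 +Pi, where Col-0 –Pi is once more the mean that stands apart. Its difference of -0.53 between the lines in –Pi and its interaction of -0.55 lay below the 5th percentile of all genes, -0.38 and -0.44. The 10 endodermis markers looked for summed to 388 CPM in CRR OE –Pi and 392 in CRR OE +Pi, against 374 in Col-0 –Pi and 386 in Col-0 +Pi. MYB36, the factor that turns on the Casparian strip genes, and ESB1, a dirigent protein of the strip, differed between the lines by -0.22 and 0.14 in –Pi.

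The peroxidases of the transition zone, where root cells leave division, are PER39, PER40 and AT5G17820, which the factor UPB1 represses. AT5G17820 was higher in –Pi by 0.69 in CRR OE and by 0.65 in Col-0, with 9.03 and 8.35 log2 CPM in CRR OE and 8.91 and 8.25 in Col-0 (–Pi first). PER39 had -0.11 in CRR OE and -0.04 in Col-0, and PER40 -0.21 and -0.14. None of the 3 passed 2-fold in any comparison, beside the 7.47% of all genes that passed in at least 1. Their interactions lay between -0.07 and 0.03. UPB1 itself differed between –Pi and +Pi by 0.43 in CRR OE and by 0.12 in Col-0.

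The 8 members known for lignin went in different directions. In –Pi, CRR OE was lower past 2-fold in PER52 and PER25 and higher in PER4. PER66 (AT5G51890) and AT4G33420, which are known from xylem vessels, had differences of 0.64 and 0.30 between the lines in –Pi, PER71 had 0.95, PER72 0.10 and PER17 -0.07. The median of the 8 was 0.20, beside 0.00 over all genes. The 3 laccases LAC4, LAC11 and LAC17, copper enzymes that make xylem lignin without hydrogen peroxide, were higher in CRR OE in –Pi by 0.97, 0.71 and 1.01, and their differences between –Pi and +Pi in Col-0 were -0.58, -0.71 and -0.63. The 7 xylem markers summed to 383 CPM in CRR OE –Pi and 347 in CRR OE +Pi, against 259 in Col-0 –Pi and 336 in Col-0 +Pi. All 7 were higher in CRR OE in –Pi, by 0.11 to 0.69. Their part in the PER66, PER71, PER4 and laccase values was not tested.

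Of the members known for the oxidative burst, PER34 (AT3G49120), which also acts in root elongation, had 10.14 log2 CPM in CRR OE –Pi and 9.69 in CRR OE +Pi, against 10.06 in Col-0 –Pi and 9.68 in Col-0 +Pi. It was higher in –Pi by 0.45 in CRR OE and 0.38 in Col-0, with an interaction of 0.07. PER4 and PER71 are given above. PER33 (AT3G49110), also listed for the burst, had no row, and whether its reads bear on PER34 was not examined. The NADPH oxidases, which supply superoxide for the hydrogen peroxide that peroxidases use, were represented by 8 genes (RBOHA to RBOHG and RBOHI), and 0 of 8 passed 2-fold in any comparison, beside the 7.47% of all genes that passed in at least 1. Their differences between the lines were 0.02 to 0.36 in –Pi and 0.04 to 0.39 in +Pi, above 0 for each of the 8. RBOHF, the oxidase of the Casparian strip, had 6.77 log2 CPM in CRR OE –Pi and 6.67 in CRR OE +Pi, against 6.75 in Col-0 –Pi and 6.56 in Col-0 +Pi.

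Among the most abundant members, PER42 (AT4G21960) had 10.49 log2 CPM in CRR OE –Pi and 10.58 in CRR OE +Pi, against 10.51 in Col-0 –Pi and 10.63 in Col-0 +Pi, and its differences were -0.12 to 0.03 over the 5 comparisons. PER32 (AT3G32980) had 10.13 and 10.64 in CRR OE, against 10.44 and 10.50 in Col-0 (–Pi first), with a difference of -0.50 between –Pi and +Pi in CRR OE and an interaction of -0.44. Of the 11 members with a mean of at least 8 log2 CPM, 0 passed 2-fold in any comparison, beside 1.6% of all genes at that level, so that 0 of 11 is near the share of the table. From 5 to 8 log2 CPM it was 3 of 14 members, beside 2.72%, from 2 to 5 it was 6 of 18, beside 5.34%, and below 2 it was 7 of 8, beside 24.1%. Among these 7, PER10, PER18, PER58 and PER65 passed 2-fold in no comparison with 1 CPM added before the logarithm. The share of all genes in that band with 1 CPM added was not counted.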

How the data were processed

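Root RNA of 4 groups (CRR OE and Col-0, –Pi and +Pi, 3 libraries each) was sequenced. Per the labels and the methods, trimming used Cutadapt 1.8, alignment to TAIR10 STAR 2.5.3a and counting HTSeq 0.9.1. RSEM 1.2.31 and R 3.5.3 are in the submitters' notes as well. A gene was kept if any library reached 1 CPM. The authors scaled by TMM and deposited log2 CPM from edgeR 3.24.3, 1 mean per group, for 19802 genes. The prior count in these values is not given in the sources used here. The table gives no value per library, so depth and replicate error are not shown. The comparison tables hold the authors' fold changes and p-values and were not used.

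Differences of group means were taken with pandas 2.3.3 and numpy 2.4.6. The calculation was tested on simulated data, and the differences themselves had no test. A gene was past 2-fold at an absolute difference of at least 1. Levels per kb used RefSeq coding lengths of TAIR10.1. Sequences were read with Biopython 1.88. Named members were those past 2-fold with a highest mean of at least 0 log2 CPM, those of 4 role lists, the 5 highest per kb, and tandem neighbours within 10 kb. PER11, PER20, PER24, PER43 and PER62 were named after their values or sequences were seen. Alternatives were a 1.5-fold and a 3-fold threshold, 1 CPM added before the logarithm, a filter on low levels, and recentring on the median of all genes. The members and lists were chosen with earlier results of these data known.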

Additional observations from a re-analysis of the deposited data

How the results depend on the processing

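Every value is a mean of 3 libraries with no spread. Which differences exceed replicate error is not known, and members below about 1 CPM are the least certain. Leaving out a library was not possible. No paired analysis was possible because the table holds 1 mean per group.

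Recentring on the median of all genes moved no count and no named difference past or back over 2-fold. At 1.5-fold the members higher and lower, with the shares of all genes in brackets, were 4 and 4 (5.68% and 3.06%) between –Pi and +Pi in CRR OE, 14 and 7 (7.21% and 6.04%) in Col-0, 6 and 11 (2.66% and 2.36%) for CRR OE minus Col-0 in –Pi, 5 and 1 (0.702% and 0.732%) for the same in +Pi, and 5 and 15 (3.72% and 3%) in the interaction. In the same order they were 1 and 1 (1.73% and 0.227%), 3 and 1 (2.26% and 0.626%), 1 and 4 (0.197% and 0.273%), 0 and 0 (0.0252% and 0.0303%), and 1 and 6 (0.273% and 0.328%) at 3-fold. With 1 CPM added before the logarithm they were 1 and 1 (2.16% and 0.364%), 6 and 2 (2.74% and 0.909%), 2 and 7 (0.197% and 0.268%), 0 and 0 (0.0151% and 0.0252%), and 1 and 9 (0.328% and 0.359%). With the filter at 1 log2 CPM, which kept 47 members, they were 1 and 1 (2.76% and 0.602%), 6 and 2 (3.4% and 1.6%), 2 and 8 (0.412% and 0.461%), 1 and 0 (0.0705% and 0.0759%), and 2 and 10 (0.651% and 0.7%). Of the 40 differences of single members past 2-fold, 11 were under 2-fold with 1 CPM added. These were PER52 in +Pi (0.36), 3 of PER58 (0.47 in Col-0, 0.30 in +Pi, -0.61 in the interaction), 2 of PER18 (-0.59 in Col-0, 0.64 in the interaction), 2 of PER65 (-0.83 in –Pi, -0.69 in the interaction), PER53 in –Pi (-0.95), and the interactions of PER10 (-0.76) and PER4 (0.98). No direction reversed.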
